A study of Mus musculus with 6 samples.

Results

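Cholesterol and fatty acid synthesis genes were compared between Mst1/2 double-knockout (dKO) and control mouse liver. The 36 genes were chosen by symbol, by a rule that uses no measured value but with earlier results of these data known, and all were among the 22068 symbols listed in each file (Sc4mol is the older symbol of Msmo1). Of these, 20 belong to sterol synthesis and its control and 16 to the synthesis of fatty acids and triglycerides. The study measured polyadenylated RNA by sequencing in 3 dKO and 3 control libraries of whole liver from C57BL/6 mice aged 6 weeks. The dKO mice were Mst1-/-, Mst2fl/fl and alb-Cre+/+, and the controls were Mst1-/-, Mst2fl/fl and alb-Cre-/-, so both groups lacked Mst1 and the comparison concerns Cre-driven loss of Mst2 in an Mst1-null liver. Mst1 and Mst2, whose mouse symbols are Stk4 and Stk3, are kinases of the Hippo pathway. The albumin promoter that drives Cre is active in hepatocytes, and which cells had recombined was not measured. Whether replicates are separate animals is not in the labels, and the spread that the p-values rest on may therefore be technical.

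Hepatocytes make cholesterol from acetyl-CoA through mevalonate, isoprenyl diphosphates, squalene and lanosterol, and make fatty acids from the same precursor through malonyl-CoA. The transcription factor SREBP-2, encoded by Srebf2, is known as the main activator of the sterol enzymes when cell cholesterol is low. SREBP-1c, encoded by Srebf1, and ChREBP, encoded by Mlxipl, are known to activate lipogenic genes in the fed state, in response to insulin and to sugar.

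Values are RPKM, reads per kilobase of transcript scaled to the reads of the library, and each log2 change is the dKO minus the control mean of log2(RPKM + 1), a scale that understates changes of low genes, given with its standard error (SE). Of the 22068 symbols, 11062 averaged 1 RPKM or more over the libraries and were tested with limma, and genes below a Benjamini-Hochberg adjusted p of 0.05 over all of them were called. Estimated depth was 21.2 to 24.25 M reads in the dKO and 17.35 to 24.85 M reads in the control libraries. The median log2 change of all tested genes was 0.23, and median-ratio scaling of the libraries moved it to -0.01, and values after that scaling are given beside several results below. Among dKO libraries replicate 3 stood apart, holding the highest value of its group at 6838 of the 11062 tested genes. Stk3 measured 5.13, 4.25 and 5.32 RPKM in dKO and 6.00, 5.42 and 5.20 RPKM in control libraries. Stk4, null in both groups by the stated genotypes, measured 4.93 to 5.84 RPKM in dKO and 4.66 to 5.50 RPKM in control libraries. Per-gene values cannot show a deleted exon and do not check the labels. Of 7 hepatocyte markers 0 were called higher and 2 lower, and their summed level was 39520 to 46078 RPKM in dKO and 45458 to 59128 RPKM in control libraries. All 4 tested cholangiocyte markers were called higher, with the sum over 6 markers at 324 to 957 RPKM in dKO and 21.6 to 70.4 RPKM in control libraries. Spp1 made up most of this sum, at 305.5 to 910 RPKM in dKO and 18.7 to 64.7 RPKM in control libraries. Alb made up most of the hepatocyte sum, at 34054 to 37822 RPKM in dKO and 36157 to 46961 RPKM in control libraries. After scaling the hepatocyte markers Ttr and Serpina1a lost their calls (limma adjusted p = 0.058 and 0.0554), as they did with the replicate number as a block (0.0543 and 0.061), and after scaling so did the cholangiocyte marker Krt19 (0.0898). None of the 5 macrophage, 5 stellate cell and 5 endothelial markers tested was called, but the stellate cell sum was 41.4 to 117 RPKM in dKO and 28.2 to 41.0 RPKM in control libraries and the endothelial sum 56.8 to 62.6 RPKM in dKO and 53.0 to 55.0 RPKM in control libraries, without overlap. The macrophage sum overlapped, at 100.2 to 146 RPKM in dKO and 65.0 to 127 RPKM in control libraries. All these marker sums are of unscaled values. The stellate cell markers Col1a1 and Pdgfrb passed with the replicate number as a block (limma adjusted p = 0.0263 and 0.026), and the macrophage marker Marco passed, lower, after scaling (0.0372). Of 5 adipocyte markers Plin1 and Lep were at 0 in all libraries and the sum was at most 0.363 RPKM. Of genes known to have many near-identical copies in the genome, Gapdh measured 0.421 to 1.30 RPKM, Ppia 0.705 to 6.63 RPKM and Rpl3 0.409 to 7.86 RPKM, while Actb measured 414 to 712 RPKM. How reads shared with copies were counted is not given in the sources used here and its part in these levels was not tested. In whole liver, fewer cells of a type and less RNA per cell cannot be told apart.

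Most of the 36 genes were not called. Of the 34 that averaged 1 RPKM or more, 1 was called higher, the sterol enzyme gene Idi1, and 1 lower, the lipogenic gene Thrsp. Among the whole 11062, 17.8% were called higher and 2.17% lower. The unadjusted p was under 0.05 for 11 of the 34 and for 4190 of all 11062. Hmgcs1, which encodes the cytosolic HMG-CoA synthase, was listed at 0 in all 6 libraries. Pnpla3, a lipid droplet protein gene, measured 0.525 to 0.935 RPKM in dKO and 0.462 to 1.64 RPKM in control libraries. Neither gene was tested for a change. Of the 22068 symbols, 5161 were listed at 0 in all 6 libraries, Hmgcs1 among them. Whether the 0 of Hmgcs1 reflects its RNA or how its reads were counted was not tested. It is therefore not read as absence of the transcript.

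**Figure D1:**
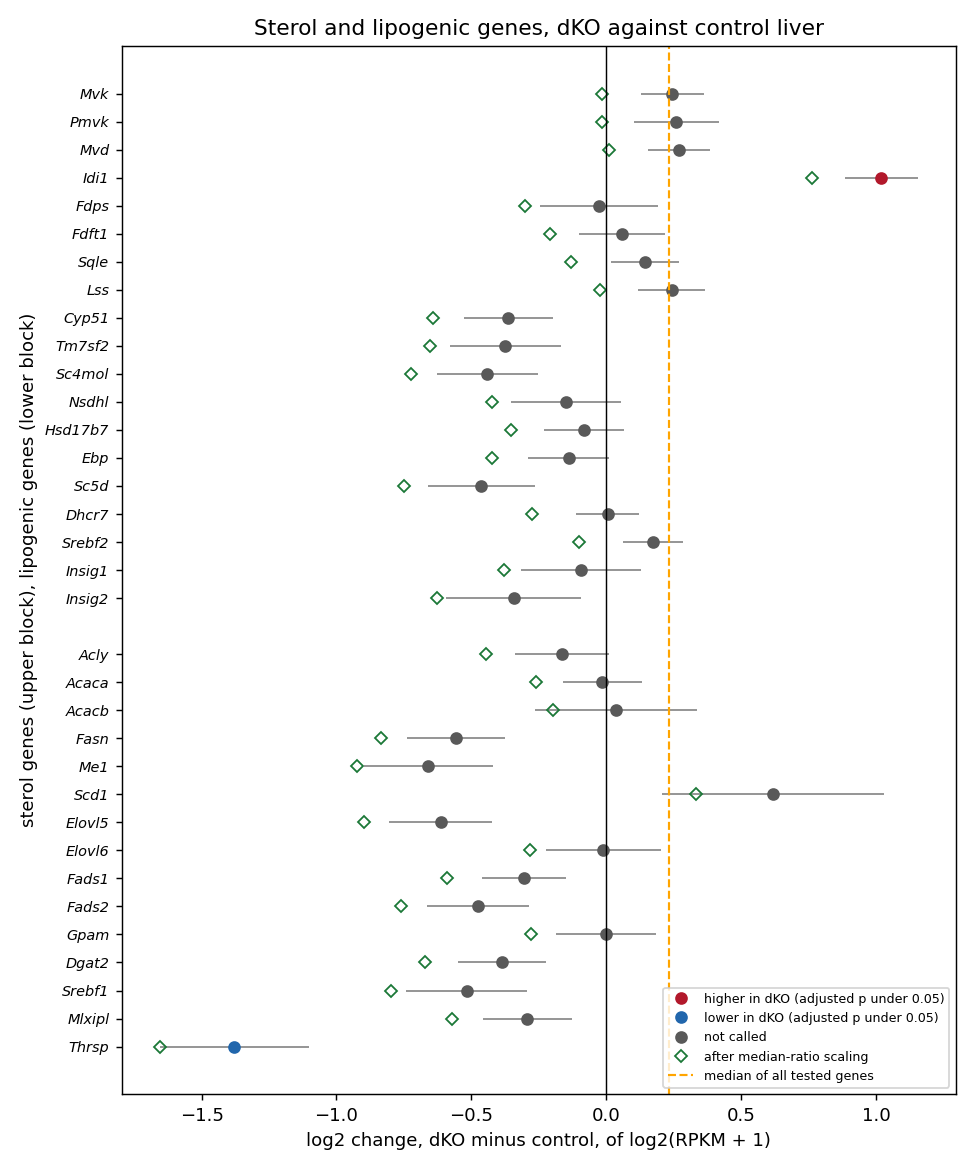
Log2 change (x axis, dKO minus control, log2(RPKM + 1) scale) of the 34 tested genes, sterol genes in the upper and lipogenic genes in the lower block. Filled points with bars are estimates ± SE, open diamonds the estimates after median-ratio scaling, and the dashed line the median of all tested genes (0.23). Idi1 stands at 1.02 and Thrsp at -1.38, and 28 of the 34 points lie left of the dashed line.

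Idi1, which encodes the isopentenyl-diphosphate isomerase that interconverts the 5-carbon building blocks of sterols, was higher in every dKO library than in any control. It measured 14.7, 13.4 and 12.2 RPKM in dKO replicates 1, 2 and 3 and 5.35, 5.98 and 7.03 RPKM in control replicates 1, 2 and 3. The groups did not overlap, and the means of 13.4 ± 1.24 and 6.12 ± 0.85 RPKM (SD, n = 3 each) differed 2.19-fold. The log2 change was 1.02 ± 0.14 (SE; limma adjusted p = 0.00305), against 0.76 (limma adjusted p = 0.0187) after median-ratio scaling. Idi1 was called under each of the 13 alternative settings, with a limma adjusted p of 0.00294 to 0.0198.

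Thrsp, which encodes Spot 14, a nuclear protein of lipogenic tissues that responds to thyroid hormone and carbohydrate, was lower in dKO liver. It measured 25.5, 14.1 and 12.2 RPKM in dKO and 46.7, 53.5 and 34.5 RPKM in control libraries. Every dKO value lay below every control value, with dKO replicate 1 above the other dKO libraries. The dKO mean of 17.2 ± 7.21 RPKM was 0.384 of the control mean of 44.9 ± 9.64 RPKM (SD, n = 3 each). The log2 change was -1.38 ± 0.28 (SE; limma adjusted p = 0.0149), against -1.65 (limma adjusted p = 0.0143) after scaling. Without control replicate 1 the log2 change was -1.34 and the call was lost, with a limma adjusted p of 0.0623 (range over 13 alternatives 0.00358 to 0.0623).

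The promoters of Idi1 and Thrsp, the called genes, and of Fasn and Elovl5, described below, are shown to place known motifs beside these values. Each sequence is the 250 bases before the RefSeq transcription start, 5′ to 3′ on the gene's strand, in build GRCm38.p6 and not in the mm9 of the files. Idi1 is chr13:8885356-8885605 on the + strand, Thrsp chr7:97417551-97417800 on the - strand, Fasn chr11:120824548-120824797 on the - strand and Elovl5 chr9:77917115-77917364 on the + strand. Capitals mark the NF-Y box, CCAAT or ATTGG on the opposite strand, and in Elovl5 also the E-box CACGTG.
Idi1: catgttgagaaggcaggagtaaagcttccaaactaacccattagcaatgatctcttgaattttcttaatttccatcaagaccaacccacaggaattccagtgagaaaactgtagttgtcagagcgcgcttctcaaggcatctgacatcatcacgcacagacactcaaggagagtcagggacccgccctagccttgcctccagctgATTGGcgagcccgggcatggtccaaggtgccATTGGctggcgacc
Thrsp: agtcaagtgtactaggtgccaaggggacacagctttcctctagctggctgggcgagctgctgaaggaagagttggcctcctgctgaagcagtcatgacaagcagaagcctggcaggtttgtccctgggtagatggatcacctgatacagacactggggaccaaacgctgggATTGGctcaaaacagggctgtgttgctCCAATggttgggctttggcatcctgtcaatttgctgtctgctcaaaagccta
Fasn: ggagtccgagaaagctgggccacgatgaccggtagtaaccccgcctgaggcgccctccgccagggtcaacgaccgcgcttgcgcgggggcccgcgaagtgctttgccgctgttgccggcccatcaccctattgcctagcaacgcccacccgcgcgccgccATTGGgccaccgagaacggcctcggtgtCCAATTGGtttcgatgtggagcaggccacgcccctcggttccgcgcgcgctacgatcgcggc
Elovl5: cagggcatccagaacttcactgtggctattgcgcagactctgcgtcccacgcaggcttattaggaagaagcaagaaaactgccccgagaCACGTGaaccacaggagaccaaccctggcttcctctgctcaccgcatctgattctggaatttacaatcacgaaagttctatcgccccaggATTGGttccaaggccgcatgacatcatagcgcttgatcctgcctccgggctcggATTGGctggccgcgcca
NF-Y is a general promoter factor that is known to act beside SREBPs. Motifs were counted in windows from 250 bases before to 50 after the start, on both strands. Of the 36 genes 30 had at least 1 window in the RefSeq table, and Fdps, Fdft1, Sqle, Scd1, Fads1 and Dgat2 had none. A CCAAT match on either strand stood in a window of 17 of 17 sterol and 10 of 13 lipogenic genes, against 41.1% of all 27025 genes with a window. The E-box CACGTG stood in 4 of 17 sterol and 2 of 13 lipogenic genes, against 8.09% of all genes. The sterol regulatory element core TCACCCCAC stood in 1 of 17 sterol and 0 of 13 lipogenic genes, against 0.614% of all genes, and the shorter CACCCCAC, which lies within it, in 1 of 17 and 1 of 13, against 3.30%. These letters describe the windows alone, since binding was not measured, and Idi1 and Thrsp, which moved in opposite directions, both hold the NF-Y box.

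Among the other enzymes up to lanosterol, no change was called, and dKO means were 0.961 to 1.23 times the control means. Mvk, which phosphorylates mevalonate, measured 11.02, 10.6 and 10.5 RPKM in dKO and 8.06, 9.76 and 8.92 RPKM in control libraries, with a log2 change of 0.25 ± 0.12 (SE; limma adjusted p = 0.161). Mvd, which makes isopentenyl diphosphate, measured 9.74, 10.7 and 10.3 RPKM in dKO and 8.78, 7.77 and 8.38 RPKM in control libraries, and its log2 change was 0.27 ± 0.11 (SE; limma adjusted p = 0.12). Lss, which makes lanosterol, measured 13.0, 11.022 and 13.7 RPKM in dKO and 9.98, 11.001 and 10.3 RPKM in control libraries, and its log2 change was 0.24 ± 0.12 (SE; limma adjusted p = 0.182). In these 3 genes every dKO value was above every control value, as in 38.3% of all tested genes. Their log2 changes sat close to the median of all genes, and after scaling they were -0.01 for Mvk, 0.01 for Mvd and -0.02 for Lss. Pmvk, the phosphomevalonate kinase, Fdps and Fdft1, which make farnesyl diphosphate and squalene, and Sqle, which oxidises squalene, had overlapping groups and log2 changes between -0.03 and 0.26. Fdps varied most among controls, at 22.7, 15.0 and 27.6 RPKM against 23.2, 22.3 and 17.2 RPKM in dKO libraries.

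Enzymes after lanosterol mostly had negative log2 changes, again without a call. Sc4mol, which removes the methyl groups at carbon 4, measured 63.6, 64.4 and 43.0 RPKM in dKO and 70.3, 73.6 and 86.2 RPKM in control libraries. It was the only 1 of these 8 enzymes whose groups did not overlap, and its log2 change was -0.44 ± 0.19 (SE; limma adjusted p = 0.122). Sc5d, the lathosterol desaturase, measured 182, 163 and 126 RPKM in dKO and 179, 229 and 240.3 RPKM in control libraries, with a log2 change of -0.46 ± 0.20 (SE; limma adjusted p = 0.124). Cyp51, the lanosterol demethylase, measured 34.3, 32.2 and 29.4 RPKM in dKO and 41.6, 33.7 and 50.2 RPKM in control libraries, and its log2 change was -0.36 ± 0.16 (SE; limma adjusted p = 0.141). After scaling the log2 changes were -0.72 for Sc4mol, -0.75 for Sc5d and -0.64 for Cyp51, with a limma adjusted p of 0.0733, 0.0684 and 0.0647. Without control replicate 2 the Cyp51 log2 change was -0.51 and passed, with a limma adjusted p of 0.0453. Tm7sf2, a sterol reductase, had a log2 change of -0.37, and Nsdhl, Hsd17b7 and Ebp had -0.15, -0.08 and -0.14. Dhcr7, the last reductase before cholesterol in 1 branch, was nearly level, at 34.5, 31.9 and 34.1 RPKM in dKO and 32.9, 34.5 and 32.6 RPKM in control libraries, and the 95% interval of its log2 change ran from -0.26 to 0.27.

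By position in the pathway, 7 of the 8 tested enzymes up to lanosterol had a positive log2 change, as did 8420 of all 11062 tested genes. After lanosterol 7 of 8 had a negative log2 change. After median-ratio scaling 2 of 8 and 0 of 8 were positive, against 5466 of all 11062. Below the median of all tested genes lay 3 of 8 up to lanosterol and 8 of 8 after it, or 6 and 8 after scaling. The median log2 change was 0.24 up to lanosterol and -0.26 after it, or -0.02 and -0.53 after scaling. With 4 further enzymes of these steps from the related list included, 7 of 10 were positive up to lanosterol and 3 of 10 after it, with medians of 0.19 and -0.14. In this wider set 2 of 10 and 1 of 10 were positive after scaling, with medians of -0.08 and -0.42. The division at lanosterol was chosen after the values were seen and was not tested.

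The regulators of the sterol arm were not called. Srebf2 measured 19.7, 19.7 and 21.7 RPKM in dKO and 17.7, 18.0 and 18.1 RPKM in control libraries. The groups did not overlap, but the log2 change of 0.17 ± 0.11 (SE) gave a limma adjusted p of 0.281 and was -0.10 after scaling. Insig1, which holds the SREBP complex in the endoplasmic reticulum and is itself a target of SREBPs, measured 81.4, 73.8 and 72.7 RPKM in dKO and 67.9, 117 and 66.9 RPKM in control libraries. Control replicate 2 was far above the rest, and the log2 change was -0.09, or 0.17 without that library. Insig2, a homologue with the same anchoring role, measured 105, 116 and 59.2 RPKM in dKO and 125, 119 and 100.4 RPKM in control libraries, with the low value in dKO replicate 3 and a log2 change of -0.34 ± 0.25 (SE). The 95% interval of the Insig2 log2 change ran from -0.91 to 0.23.

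**Figure D2:**
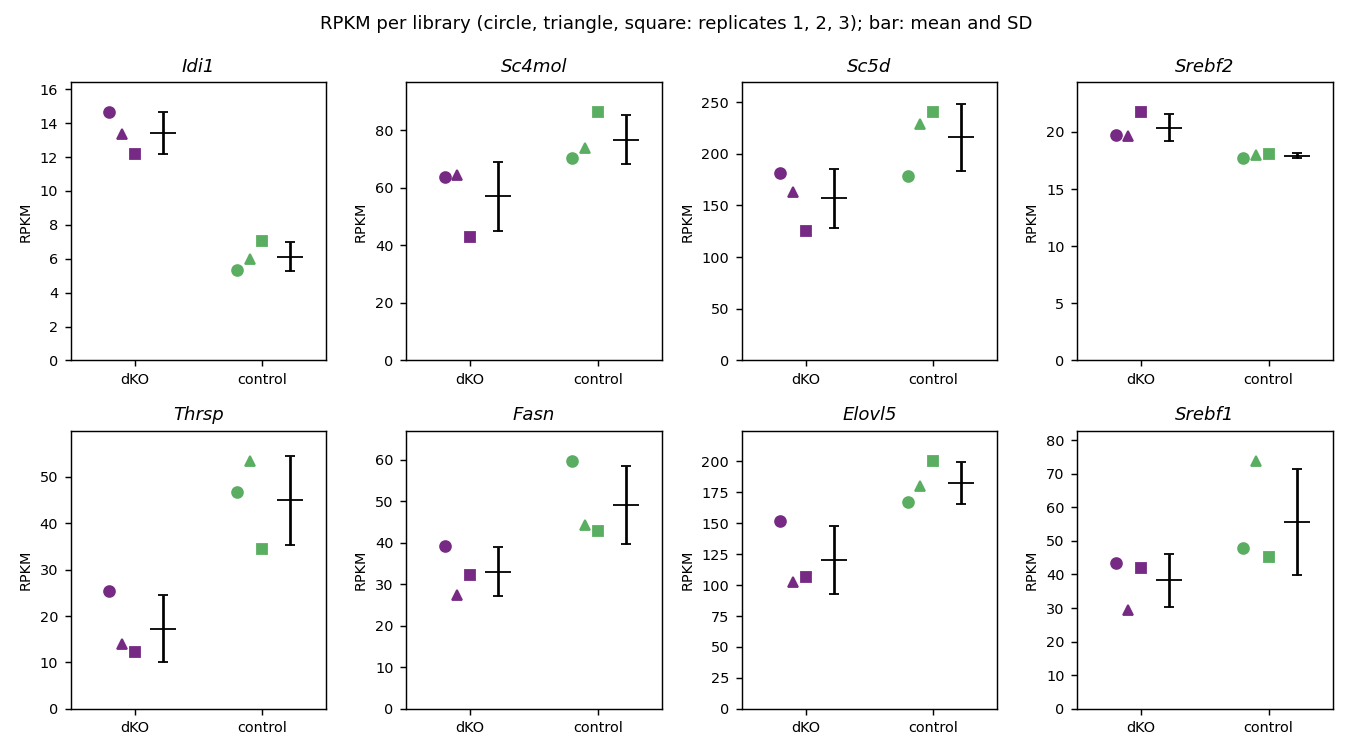
RPKM (y axis) in each library for 8 genes, dKO left and control right, with circles, triangles and squares for replicates 1, 2 and 3 and bars for the mean ± SD. The groups do not overlap for any gene shown except Sc5d, and the mean is higher in dKO for Idi1 (13.4 against 6.12 RPKM) and Srebf2 (20.4 against 17.9 RPKM).

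Fatty acid synthesis genes other than Thrsp were mostly at lower means in dKO liver, short of the threshold. Fasn, which encodes fatty acid synthase, measured 39.2, 27.5 and 32.4 RPKM in dKO and 59.8, 44.4 and 42.9 RPKM in control libraries. Its groups did not overlap, the dKO mean was 0.673 of the control mean, and the log2 change of -0.56 ± 0.18 (SE) gave a limma adjusted p of 0.0609. Elovl5, an elongase of polyunsaturated fatty acids, measured 152, 102 and 107 RPKM in dKO and 167, 180 and 201 RPKM in control libraries, with a log2 change of -0.61 ± 0.19 (SE; limma adjusted p = 0.0528). After median-ratio scaling both were called lower, with log2 changes of -0.84 for Fasn and -0.90 for Elovl5 (limma adjusted p = 0.0336 for each). After quantile normalization neither was called, at -0.67 and -0.52 (limma adjusted p = 0.062 and 0.0844). Elovl5 was also called without dKO replicate 1 (log2 change -0.79, limma adjusted p = 0.0353). Me1, the malic enzyme that supplies NADPH, measured 13.6, 7.57 and 8.16 RPKM in dKO and 17.4, 11.6 and 18.5 RPKM in control libraries, and its log2 change of -0.66 ± 0.24 (SE) gave a limma adjusted p of 0.0853. Me1 passed without dKO replicate 1 (-0.90, limma adjusted p = 0.0317) and without control replicate 2 (-0.86, limma adjusted p = 0.0363), and with the replicate number as a block (0.0398).

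No change was called among the desaturases. Fads1, the delta-5 desaturase gene, measured 117, 111 and 111 RPKM in dKO and 128, 131 and 163 RPKM in control libraries. Fads2, the delta-6 desaturase gene next to it in the pathway, measured 98.1, 80.3 and 78.3 RPKM in dKO and 112, 99.9 and 150 RPKM in control libraries. Both had every dKO value below every control value, with log2 changes of -0.30 ± 0.16 and -0.47 ± 0.19 (SE) and limma adjusted p of 0.183 and 0.103. Scd1, which makes monounsaturated fatty acids and was the most abundant of the 36 genes, measured 919, 693 and 669 RPKM in dKO and 280.3, 953 and 439 RPKM in control libraries. Control replicate 2 lay above all dKO libraries, and the log2 change of 0.62 ± 0.41 (SE) gave a limma adjusted p of 0.297. After scaling it was 0.33. Without that library the Scd1 log2 change was 1.10 (limma adjusted p = 0.0222).

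Of the other enzymes of fatty acid supply, elongation and triglyceride synthesis, none was called. Acly, which makes cytosolic acetyl-CoA, averaged 50.8 ± 7.21 RPKM in dKO and 57.3 ± 10.7 RPKM in control, and Acaca and Acacb, the acetyl-CoA carboxylases, had log2 changes of -0.01 and 0.04. The 95% interval was -0.35 to 0.32 for Acaca and -0.66 to 0.73 for Acacb, whose control libraries measured 2.81, 8.18 and 4.81 RPKM. Elovl6, the elongase of palmitate, had a log2 change of -0.01, with 10.6 RPKM in dKO replicate 2 against 20.5 and 17.2 RPKM in the other dKO libraries. Of the triglyceride enzymes, Gpam, which makes lysophosphatidic acid, had a log2 change of 0.00 with a 95% interval from -0.42 to 0.42. Dgat2, which adds the last acyl chain, measured 88.4, 91.4 and 67.3 RPKM in dKO and 103, 106 and 113 RPKM in control libraries, with no overlap and a log2 change of -0.39 ± 0.16 (SE; limma adjusted p = 0.119).

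Of the lipogenic transcription factors, Srebf1 measured 43.5, 29.3 and 41.8 RPKM in dKO and 47.8, 73.9 and 45.3 RPKM in control libraries. Its groups did not overlap, and its log2 change of -0.52 ± 0.23 (SE) gave a limma adjusted p of 0.129. After scaling it was called lower at -0.80 with a limma adjusted p of 0.0415, but not after quantile normalization (limma adjusted p = 0.083). The highest limma adjusted p over 13 alternatives was 0.309. Mlxipl measured 33.7, 37.5 and 38.6 RPKM in dKO and 56.2, 38.0 and 42.5 RPKM in control libraries, which overlapped, and its log2 change was -0.29 ± 0.17 (SE; limma adjusted p = 0.224).

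Set side by side, the sterol list centred near zero and the lipogenic list below it. Of 19 tested sterol genes 1 was called higher and 0 lower, 10 had a negative log2 change and the median was -0.03. Of 15 tested lipogenic genes 0 were called higher and 1 lower, 13 had a negative log2 change and the median was -0.30. Over all tested genes 23.9% had a negative log2 change. After median-ratio scaling, where 7.89% of the 11062 genes were called higher and 5.55% lower, the sterol list had 1 higher and 0 lower with a median of -0.30, and the lipogenic list 0 higher and 4 lower (Thrsp, Fasn, Elovl5 and Srebf1) with a median of -0.59. The groups did not overlap at 5 sterol genes with dKO above and 1 with dKO below, against 0 and 7 lipogenic genes, while over all tested genes 38.3% had dKO above and 6.73% dKO below. After quantile normalization 0 lipogenic genes were called higher and 1 lower, with a median of -0.34, against 727 and 554 of all 11062 genes. Without control replicate 1, 0 lipogenic genes were called lower, and without dKO replicate 1 or control replicate 2 there were 3 and 2. The difference between the lists was not tested. Before scaling, the cholangiocyte, stellate cell and endothelial marker sums given above were higher in every dKO library than in any control. The hepatocyte sums overlapped. After scaling, log2 changes ran from 0.63 to 3.76 over the tested cholangiocyte markers and from -0.19 to 1.10 over the stellate cell markers. They ran from -0.60 to -0.02 over the endothelial and from -1.49 to -0.30 over the hepatocyte markers. The part of these cells in the result was not tested.

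The libraries of a group did not move as blocks across both lists. The median difference from the control mean over the 15 lipogenic genes was -0.26, -0.35 and -0.33 (log2) in dKO replicates 1, 2 and 3 and -0.07, -0.02 and -0.02 in control replicates 1, 2 and 3. Over the 19 sterol genes it was 0.12, 0.02 and -0.15 in dKO and -0.12, 0.07 and 0.03 in control libraries, which overlap. The dKO replicate 1 held the highest dKO value at 13 of 15 lipogenic and 12 of 19 sterol genes, but at 2409 of all 11062. The dKO replicate 3, highest at most genes of the series, held the lowest dKO value at 11 of 19 sterol genes. Within the control group, replicate 2 was highest for Scd1, Srebf1, Insig1, Acacb, Acly and Gpam but lowest for Me1, Fdps, Nsdhl and Mlxipl. The median coefficient of variation within dKO and control was 17.9% and 20.8% over the lipogenic genes, 9.27% and 13.9% over the sterol genes, and 14.5% and 14.9% over all tested genes.

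**Figure D3:**
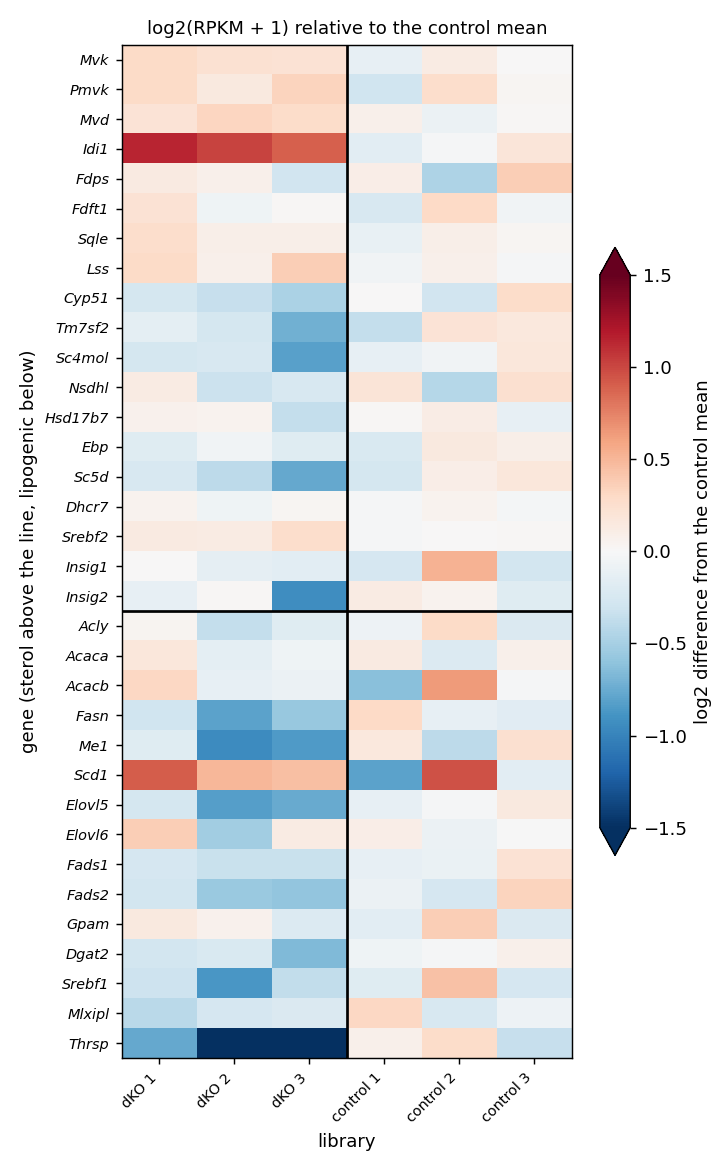
Difference of log2(RPKM + 1) from the control mean (colour) for each tested gene (rows, sterol above the line) and library (columns, dKO left of the line). Colours stop at 1.5 in each direction. Thrsp is blue and Idi1 red in all 3 dKO libraries, with Thrsp palest in dKO replicate 1. In control replicate 2 Scd1 is red and Insig1 a paler red.

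Other genes of both pathways gave 6 calls, of which 4 are described. Of 51 further genes 45 were tested, with 2 called higher and 4 lower, against 17.8% and 2.17% of all tested genes. Their median log2 change was 0.04, against 0.23 over all tested genes. On the sterol side 1 of 22 was higher and 3 lower. Scap, which escorts SREBPs from the endoplasmic reticulum to the Golgi, was lower at 19.3 ± 2.59 RPKM in dKO and 30.5 ± 4.86 RPKM in control (limma adjusted p = 0.0266). Scap lost its call without dKO replicate 1 or 3 or control replicate 1 or 3 (0.0531 to 0.0897), with the replicate number as a block (0.0556) and without the filter on low values (0.0525). Abcg8, which forms the sterol exporter of the bile canaliculus with Abcg5, averaged 17.0 ± 1.75 RPKM in dKO and 27.2 ± 3.79 RPKM in control (limma adjusted p = 0.0184), and lost its call without dKO replicate 3 (0.056) or control replicate 3 (0.0631). Abcg5 measured 47.0, 46.2 and 40.3 RPKM in dKO and 32.4, 48.2 and 36.8 RPKM in control libraries and was not called, with a log2 change of 0.20, or -0.08 after scaling.

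The proteases that release SREBPs in the Golgi, Mbtps1 and Mbtps2, had every dKO value above every control value but limma adjusted p of 0.0802 and 0.192, and after scaling log2 changes of 0.06 and 0.03. On the lipogenic side 1 of 23 was higher and 1 lower. Elovl1, an elongase of saturated very long chain fatty acids, averaged 28.9 ± 2.99 RPKM in dKO and 17.6 ± 2.08 RPKM in control (limma adjusted p = 0.0128), and lost its call after scaling (0.115), after quantile normalization (0.0602) and without control replicate 1 (0.0529). Aacs, which activates acetoacetate for lipid synthesis, averaged 5.005 ± 1.11 RPKM in dKO and 8.58 ± 1.19 RPKM in control (limma adjusted p = 0.0252), and lost its call without dKO replicate 2 or 3 or control replicate 1 or 3 (0.0628 to 0.0885), and without the filter on low values (0.0518). After scaling, where 7.89% of all tested genes were higher and 5.55% lower, 0 of the 45 were higher and 7 lower, among them Scap, Abcg8, Aacs, Abca1, Mmab and Elovl2.

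**Figure D4:**
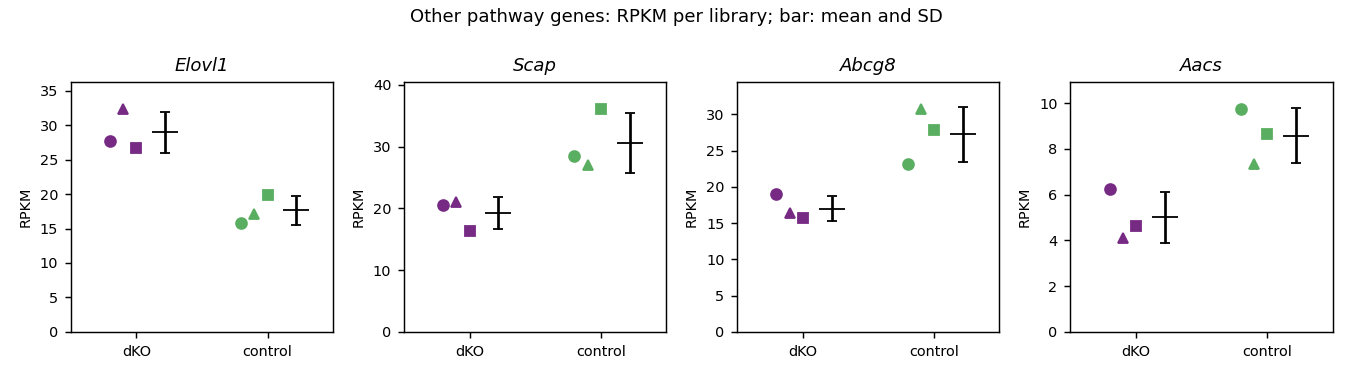
RPKM (y axis) in each library for 4 of the 6 called genes outside the 36, dKO left and control right, with replicates 1, 2 and 3 as circles, triangles and squares and bars for the mean ± SD. Elovl1 lies higher in dKO, and Scap, Abcg8 and Aacs lower, without overlap of the groups.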

How the data were processed

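Polyadenylated RNA of 6 mouse liver libraries was sequenced, 3 dKO and 3 control. Alignment and counting were done by the authors, with build mm9 per the submitters' processing notes; the aligner, counting tool and annotation are not given in the sources used here. The deposited values were read as RPKM, inferred from the spacing of low values. Among 3973 single-transcript genes (GENCODE M21 lengths), 215 to 364 low values per library were used. Of these, 73.4% to 80.1% lay within 0.15 of a whole number of reads. Depth was estimated as the value that brought them closest to whole reads. The percentages come from that same choice and therefore cannot check the unit. The unit itself was not tested.

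From these, log2(RPKM + 1) was fitted over the 11062 genes averaging 1 RPKM or more by limma 3.58.1 in R 4.3.3, with trend and robust moderation, two-sided, and no block. The design named edgeR for the case of counts, which these files do not hold. The fit was tested on simulated data. Members and lists were chosen with earlier results of these data known. Named were all 36 members and the called genes of the 51 related ones, of which some are counted but not reported here. Alternatives were 2 scalings, each library left out, the replicate number as a block, a pseudocount of 0.1, moderation that is not robust, no filter and a filter of 1 RPKM or more in 3 libraries. Figures used matplotlib 3.10.9 in Python 3.11.15. Coordinates and isoforms were left out, as the files hold none.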

Additional observations from a re-analysis of the deposited data

How the results depend on the processing

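Idi1 was called under each of 13 alternatives, and Thrsp under each except the one without control replicate 1. With the replicate number as a block, 2 members were called lower, 2 of them lipogenic (Thrsp and Me1), against 1 without it. Whether the numbers pair the libraries is not in the labels. Same-numbered deviations correlated at -0.08, -0.10 and -0.01, and dKO replicate 1 correlated best with control replicate 2. With deviations centred within 3 libraries per group, these correlations cannot decide it. After median-ratio scaling 4 members were called lower, 4 of them lipogenic, the related list had 0 called higher and 7 lower, and 873 of all genes were higher and 614 lower. The median log2 changes were then -0.30 (sterol), -0.59 (lipogenic) and -0.25 (related). Log2 changes that turned negative were -0.20 for Acacb, -0.27 for Dhcr7, -0.21 for Fdft1, -0.021 for Lss, -0.0148 for Mvk, -0.0146 for Pmvk, -0.13 for Sqle and -0.10 for Srebf2. After quantile normalization 1 related gene was called higher, and 727 of all genes were higher and 554 lower. The lipogenic list then had 0 called higher and 1 lower, and the medians were -0.18 (sterol), -0.34 (lipogenic) and -0.17 (related). Log2 changes that turned negative there were -0.26 for Acacb, -0.13 for Dhcr7, -0.18 for Fdft1, -0.00032 for Mvk, -0.0187 for Sqle and -0.041 for Srebf2. Without the filter 1 related gene and 145 of all genes were called lower. With a pseudocount of 0.1 Gpam changed sign at 6.83e-05. With 1 library left out at a time, 1 to 2 members were called higher and 0 to 3 lower; 0 to 1 sterol genes were called lower, 0 to 1 lipogenic genes higher and 0 to 3 lower, 1 to 4 related genes higher and 0 to 5 lower, and 755 to 1983 of all genes higher and 90 to 241 lower. The lipogenic median ran from -0.37 to -0.29, while the sterol median (-0.10 to 0.057) and the related median (-0.0064 to 0.059) crossed 0. Log2 changes that crossed 0 ran from -0.12 to 0.055 for Acaca, -0.28 to 0.36 for Acacb, -0.0164 to 0.039 for Dhcr7, -0.20 to 0.25 for Elovl6, -0.061 to 0.21 for Fdft1, -0.26 to 0.16 for Fdps, -0.11 to 0.19 for Gpam, -0.15 to 0.057 for Hsd17b7 and -0.23 to 0.17 for Insig1. The cause of these shifts was not tested.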
